A study of Homo sapiens with 23 samples.

Results

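The locus of SVIL on chromosome 10 was examined in 5 lists of ChIP-seq peaks from SH-SY5Y, a line of human neuroblastoma cells that can be matured towards neurons with retinoic acid followed by brain-derived neurotrophic factor (BDNF). Its members were all peaks that overlapped chr10:29700000-30080000 (hg19), a window around the SVIL gene body, which lies on the minus strand at about chr10:29746000-30026000. They numbered 46 of the 52708 peaks of the 5 lists. SVIL in control cells at day 3 gave 10 of its 1452 peaks, LSD1+8a in control cells at day 3 gave 1 of 3378, LSD1 in control cells at day 3 gave 12 of 20748, LSD1 after LSD1+8a knockdown gave 1 of 10248 at day 0, and LSD1 in control cells at day 0 gave 22 of 16882. The locus was chosen by the number, length and score of its day 0 LSD1 peaks in control cells and by their absence from the knockdown list. Those counts, lengths, scores and overlaps are therefore a description, and no test is given. Folds and tags belong to the same peaks, and how far they follow from length and score was not tested. They are a description too.

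Cells of all 5 groups had been infected with an shRNA, against LSD1+8a in the knockdown group and a control shRNA in the other 4, and were treated with 10 µM retinoic acid for 4 days. Day 3 is the third day of 50 ng/mL BDNF without serum, and day 0 precedes it. The series holds 23 samples, 14 of them ChIP and 9 input. The other 9 ChIP samples, which include SVIL ChIP from SVIL knockdown cells, and the inputs were not analysed here. Each group is 1 library, so no value has a replicate check, and how far LSD1+8a was depleted cannot be read from these lists. The lists hold no expression values, so the identity of the cells and the level of SVIL were not checked.

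SVIL encodes supervillin, a large protein of the villin and gelsolin family that binds actin filaments and myosin II at the inner face of the plasma membrane, and a muscle isoform is known as archvillin. LSD1 (KDM1A) removes methyl groups from lysine 4 of histone H3, and its splice isoform LSD1+8a is found in neurons. The design text of the series names SVIL as a cofactor of LSD1+8a, so the gene described here encodes one of the proteins that were immunoprecipitated. In ChIP-seq, a peak is a stretch where more sequenced fragments, counted as tags, were found than in a background, and fold enrichment is the size of that excess as the authors' peak caller gave it.

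The RefSeq table used here, on the GRCh38.p14 assembly, gives SVIL 4 transcript starts. SVIL-AS1, a long non-coding RNA gene, overlaps 1 end of SVIL there, MIR604 and MIR938 lie inside it, and the nearest coding genes are LYZL1 and JCAD. The outermost start and the innermost start are shown because they are the ends of the range of these 4 starts. Distances of the peaks from them were not measured. Each line gives the 250 bases before a start, 5′ to 3′ on the minus strand, with each CG dinucleotide, the target of DNA methylation, in capitals. The outermost is chr10:29736937-29737186 and the innermost chr10:29634972-29635221, both on GRCh38.p14, and neither was placed on hg19.
SVIL outermost start: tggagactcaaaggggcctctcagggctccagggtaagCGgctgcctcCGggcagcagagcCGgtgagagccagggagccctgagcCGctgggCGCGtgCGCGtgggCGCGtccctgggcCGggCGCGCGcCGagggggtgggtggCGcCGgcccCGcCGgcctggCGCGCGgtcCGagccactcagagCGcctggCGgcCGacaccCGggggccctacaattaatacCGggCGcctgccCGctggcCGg
SVIL innermost start: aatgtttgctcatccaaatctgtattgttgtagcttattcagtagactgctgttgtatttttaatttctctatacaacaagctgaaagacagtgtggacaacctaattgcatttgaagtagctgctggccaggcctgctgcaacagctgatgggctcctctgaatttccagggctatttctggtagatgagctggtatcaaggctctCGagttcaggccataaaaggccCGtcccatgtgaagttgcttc
The outermost sequence held 31 CG dinucleotides, and 10.9% of the 35116 RefSeq promoter sequences of this length held as many or more. The innermost held 2, and 85.3% held as many or more. CG reads the same on both strands, so 1 search covers both.

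Most peaks of the locus lay in 1 dense stretch in the downstream part of the gene. It is the run of 19 LSD1 peaks of control cells at day 0, each at most 25 kb from the next, from 29751111 to 29843994. The run spanned 92.9 kb, or 33.2% of the gene body. On the minus strand it reached from about 182.0 to 274.9 kb downstream of the gene start, ending about 5.11 kb short of the 3′ end of the gene body. The same stretch held 9 of the 10 SVIL peaks, the single LSD1+8a peak and 8 of the 12 day 3 LSD1 peaks. It held no peak of the knockdown list, against 19 peaks of the control list at day 0. The nearest knockdown peaks lay 207 kb and 181 kb away on either side, measured from the borders of the run. The gap between these knockdown peaks, from 29543983 to 30024700, holds both distances and the run itself. Over the whole knockdown list, the median gap between neighbouring peaks was 107 kb.

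**Figure D1:**
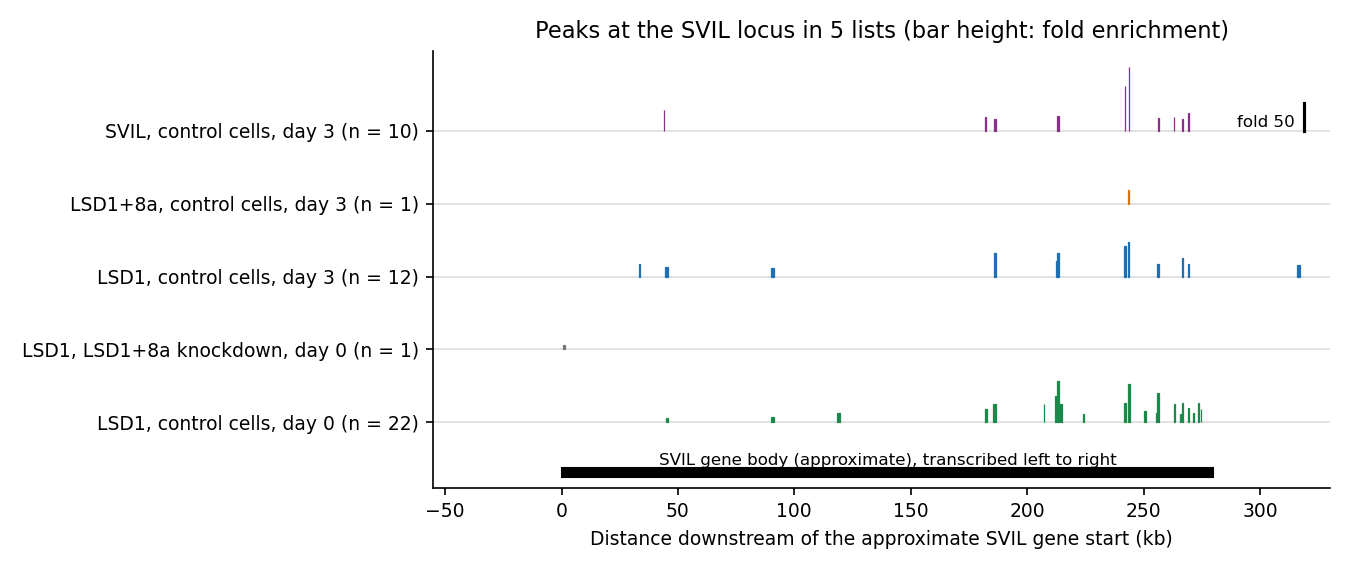
Peaks of the 5 lists along the SVIL locus, by distance in kb downstream of the approximate gene start. Each bar is 1 peak drawn from its start to its end, with its fold enrichment as height. A thin outline makes the bars look wider than the peaks are. The narrow bars from about 182.0 to 274.9 kb form the run of 19 day 0 LSD1 peaks of control cells, which SVIL and day 3 LSD1 share in part and where the knockdown row is empty.

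Overlapping peaks of any list were joined into 26 sites, 19 in the run and 7 outside it. In the run, 7 sites held peaks of 3 or more lists, and outside it none did. The run is made of day 0 LSD1 peaks of control cells, so each of its sites held that list by construction. The contrast is therefore a description only, and the share of such sites over the whole lists was not computed. The most frequent kind of site, with 10, held a day 0 LSD1 peak of control cells and no other. Another 6 carried SVIL, day 3 LSD1 and day 0 LSD1 of control cells, and 1 carried these and LSD1+8a as well. Peaks of 2 lists made up 5 sites, of which 2 held SVIL with day 0 LSD1 and 3 held LSD1 of control cells on both days.

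The site with the strongest SVIL fold lay about 243.8 kb downstream of the gene start. SVIL had a peak from 29782131 to 29782423 with 62 tags at a fold of 114.9, which is the highest fold of the whole SVIL list, and ranked 6 by score. LSD1+8a had its only peak of the locus there, from 29782057 to 29782604, with 22 tags at a fold of 23.9. LSD1 in control cells had 76 tags at a fold of 62.5 on day 3 (29782021 to 29782731) and 57 tags at a fold of 68.7 on day 0 (29781796 to 29782612). All 4 lists of control cells met at this site, and the knockdown list had no peak there. The summit of the SVIL peak lay 9 bp from that of LSD1+8a. The LSD1+8a summit lay 6 bp from the LSD1 summit of day 3 and 32 bp from that of day 0.

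A further pair of sites held more tags for LSD1 at day 0. At the first, SVIL had 69 tags at a fold of 21.3 (29839487 to 29840272) and LSD1 of control cells had 78 tags at a fold of 41.3 on day 3 and 157 tags at a fold of 33.5 on day 0 (29839414 to 29840597). At the second, SVIL had 60 tags at a fold of 27.3 (29812371 to 29813047) and LSD1 of control cells had 73 tags at a fold of 41.2 on day 3 and 137 tags at a fold of 73.8 on day 0 (29812286 to 29813063). Neither site had an LSD1+8a peak or a knockdown peak. These and the site of the strongest SVIL fold were the 3 sites of the run with the most tags in the SVIL list, the day 3 LSD1 list and the day 0 LSD1 list of control cells. In the day 0 list they ranked 14, 9 and 130 by score among 16882 peaks, in the order 29839414, 29812286 and 29781796.

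The next 2 day 0 peaks by score were the one from 29759094 to 29759577, with 54 tags at a fold of 34.8, and the one from 29813262 to 29813960, with 52 tags at a fold of 46.1. The site at 29759094 was also listed for SVIL, with 34 tags at a fold of 21.9, and for LSD1 at day 3, with 35 tags at a fold of 33.6. The site at 29813262 was listed for LSD1 at day 3 with 27 tags at a fold of 28.05 and had no SVIL peak. A SVIL peak from 29783816 to 29784004, with 31 tags, had the second highest fold of SVIL at the locus, 79.2, beside 39 tags at a fold of 55.4 for LSD1 on day 3 and 23 tags at a fold of 33.6 on day 0. At this site and at the site of the strongest SVIL fold, LSD1 had more tags on day 3 than on day 0. At each of the other 6 sites of the run with LSD1 on both days the day 0 peak had more. The number of reads behind each list is not stated in the labels, so tags of different lists are not on 1 scale.

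**Figure D2:**
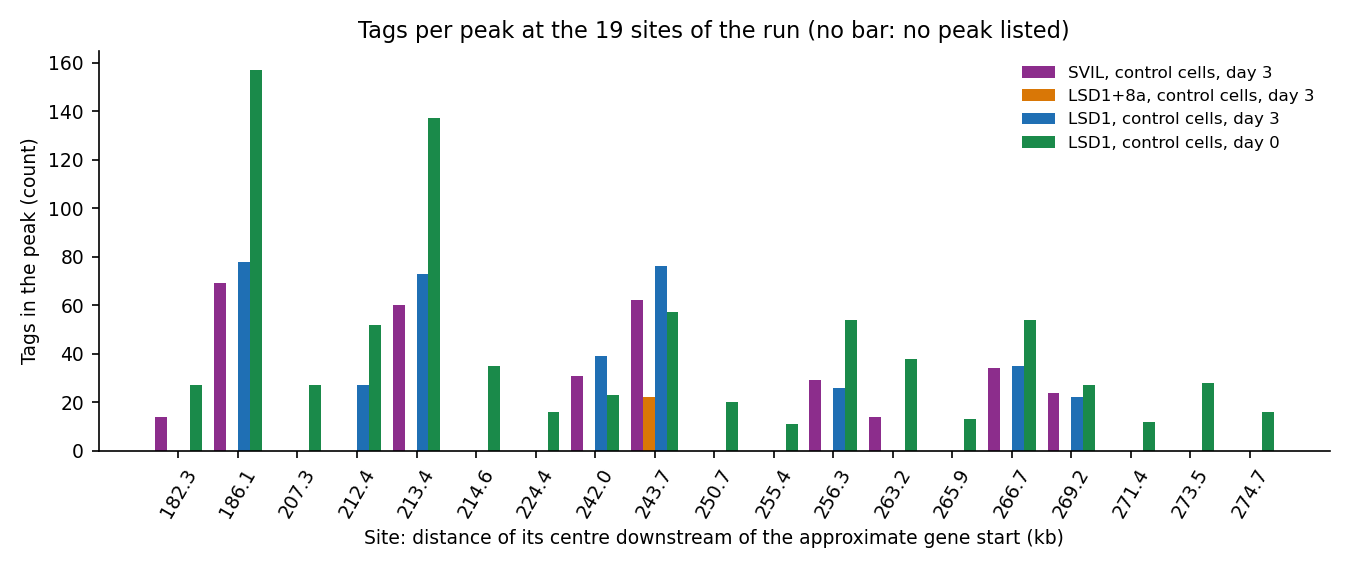
Tags per peak at the 19 sites of the run, ordered from the 5′ to the 3′ side by distance downstream of the approximate gene start in kb, with 1 bar for each list of control cells. The same 3 sites carry the tallest bars for SVIL, LSD1 at day 3 and LSD1 at day 0, and the knockdown list has no peak at any of the 19.

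LSD1 peaks of the run were short for their lists, SVIL peaks were of mixed length, and all had folds above their list medians. SVIL peaks there were 179 to 786 bp long with a median of 283 bp, against 314 bp over the SVIL list. LSD1 peaks of day 3 were 514 to 1001 bp long with a median of 620.5 bp, against 1044 bp over that list. LSD1 peaks of day 0 in control cells were 318 to 1184 bp long with a median of 484 bp, against 834.5 bp over that list. Shorter than the list median were 6 of 9 SVIL peaks (background 49.9%), 8 of 8 day 3 LSD1 peaks (background 49.9%) and 17 of 19 day 0 LSD1 peaks (background 50.0%). The other 3 SVIL peaks, of 411, 677 and 786 bp, were longer than 80.3%, 98.3% and 99.4% of the SVIL list. Of the SVIL peaks of the run, 4 of 9 belonged to the shortest 10% of their list (background 10.4%). Of the LSD1 peaks, 6 of 8 did on day 3 (background 10.0%) and 10 of 19 on day 0 (background 10.0%). The fragments selected for sequencing were 300 to 600 bp long. Of the day 3 LSD1 peaks of the run, 3 of 8 were no longer than the longest such fragment, against 3.12% of the list. On day 0 it was 13 of 19 in control cells, against 16.9%.

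The median fold of the run was 24.6 for SVIL (list median 18.2), 37.4 for LSD1 on day 3 (list median 17.05) and 32.98 for LSD1 on day 0 in control cells (list median 9.30). All 9 SVIL peaks lay above their list median, as did 49.4% of the SVIL list, and so did all 8 day 3 LSD1 peaks (background 49.6%) and all 19 day 0 LSD1 peaks (background 50.0%). Among the top 10% of their list by fold were 3 of 9 SVIL peaks (background 10.2%), 5 of 8 day 3 LSD1 peaks (background 10.1%) and 18 of 19 day 0 LSD1 peaks (background 10.0%). By score the numbers in the top 10% were 6 of 9 (background 10.1%), 3 of 8 (background 10.0%) and 11 of 19 (background 10.0%).

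The median SVIL peak of the run held 31 tags, against 20 over its list, and 7 of 9 had more than the list median (background 45.4%). For LSD1 on day 3 the median was 37 tags, against 50 over the list, and 3 of 8 had more than the list median (background 48.9%). The median day 0 LSD1 peak of control cells in the run held 27 tags, against 26 over the list, and 12 of 19 had more (background 49.5%). Tags of LSD1 were packed into less length. The median was 64.8 tags per kb of peak in the run and 46.0 over the list on day 3, and 62.9 in the run and 30.5 over the list on day 0.

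**Figure D3:**
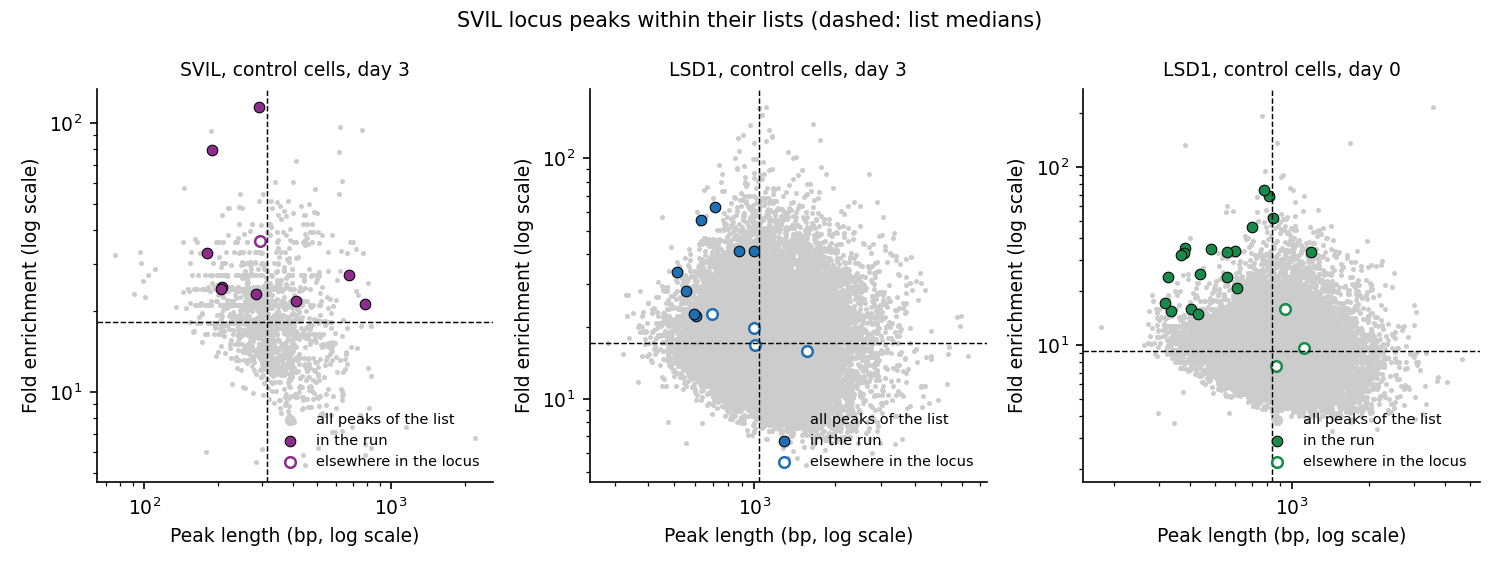
Peak length in bp against fold enrichment, both on log scales, for SVIL, day 3 LSD1 and day 0 LSD1 in control cells. Grey points are all peaks of a list, dashed lines its medians, filled points the run and open points the rest of the locus. In the run, all 19 day 0 LSD1 peaks lie above the median fold and 17 of 19 are shorter than the median length (background 50.0%).

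Shared peaks of the run had summits at most 286 bp apart. All 9 SVIL peaks of the run overlapped a day 0 LSD1 peak of control cells, against 50.8% of the SVIL list, and 8 of the 9 lay wholly inside it. Their summits were 3 to 185 bp apart, with a median of 23 bp. With day 3 LSD1, 7 of 9 SVIL peaks overlapped, against 58.7% of the list, all 7 lay wholly inside the LSD1 peak, and the summits were 0 to 286 bp apart with a median of 79 bp. Whole-list median lengths were 314 bp for SVIL, 834.5 bp for day 0 LSD1 of control cells and 1044 bp for day 3 LSD1. Containment and summit distances were not computed over the whole lists, so neither is read as particular to the locus. All 8 day 3 LSD1 peaks of the run overlapped a day 0 peak, against 40.1% of the day 3 list, with a median of 24.5 bp between summits, and 7 of the 8 overlapped a SVIL peak, against 3.97%. The run is bounded by day 0 LSD1 peaks, so peaks counted inside it were picked for lying near that list. Over the whole locus, 9 of 10 SVIL peaks and 10 of 12 day 3 LSD1 peaks overlapped a day 0 peak. The other way round, 9 of 19 day 0 peaks of the run overlapped a SVIL peak, against 4.24% of the day 0 list, and 8 of 19 overlapped a day 3 LSD1 peak, against 50.1%. In the other 18 runs of at least 10 day 0 peaks, 0% to 33.3% overlapped a SVIL peak. Shares among peaks of like score were not computed for either LSD1 list. At an LSD1+8a peak lay 1 of 9 SVIL peaks of the run, or 11.1%, beside 18.6% of the SVIL list. The exact 95% interval, 0.281% to 48.2%, covers counting error only and treats neighbouring peaks as independent, so no difference is read. Which input stands behind each list is not stated, so peaks that the lists share through an input could not be told apart. The only input titled for control cells at day 3 belongs to the ChIP set of a histone mark.

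Peaks of the run were separated by gaps of very unequal length. The SVIL peaks had 8 gaps from 1.39 to 28.4 kb with a median of 5.01 kb, and the day 3 LSD1 peaks had 7 from 0.131 to 27.8 kb with a median of 9.89 kb. Between the 19 day 0 LSD1 peaks of control cells the 18 gaps ran from 0.198 to 20.5 kb with a median of 2.27 kb, and 8 were under 2 kb while 2 were 10 kb or more. These day 0 peaks covered 11.3% of the span, 10.5 kb in all. Towards the 3′ end of the gene, 7 of the 19 day 0 peaks lay between 29751111 and 29763032. Exons are likewise short and parted by introns of unequal length, but no exon positions in hg19 were used here, and whether the peaks lie on exons was not tested. Nor was it tested whether the tags of the run came from chromatin of the gene or from other DNA with SVIL sequence in the libraries, such as cDNA or a vector, since the inputs were not examined. Tags, folds and the absence from the knockdown list are therefore not read as binding here. Over the whole lists, the median gap between neighbouring peaks was 802 kb for SVIL, 55.1 kb for day 3 LSD1 and 68.0 kb for day 0 LSD1 of control cells.

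Outside the run the sites were few, and their LSD1 peaks were broader and lower in median fold. The longest stretch of the window between peaks of any list, 62.6 kb, began at the 5′ border of the run. Beyond it LSD1 had 3 peaks on day 3, 692 to 1576 bp long with folds of 15.9 to 22.6, and 3 on day 0 in control cells, 863 to 1120 bp long with folds of 7.59 to 16.0. The site with the most tags there had 92 tags on day 3 (29934595 to 29936170) and 35 on day 0 (29934858 to 29935977). A second had 42 tags on day 3 (29980442 to 29981447) and 28 on day 0 (29980300 to 29981162). The day 0 peaks outside the run held 31.25 to 32.8 tags per kb, close to the list median of 30.5. None of the 3 was shorter than the list median. SVIL had 1 peak here, from 29981775 to 29982070 with 36 tags at a fold of 36.4, which began 327 bp beyond the end of the day 3 LSD1 peak and overlapped no other list.

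The single knockdown peak of the locus lay from 30024700 to 30025311, about 689 bp from the gene start as the rule places it, where no other list had a peak. It held 19 tags at a fold of 7.92 and ranked 5089 of 10248, below the list medians of 28 tags and a fold of 9.13. On the 3′ side, LSD1 at day 3 had 1 peak beyond the gene body, from 29708909 to 29709904 with 40 tags at a fold of 19.8. These were the outermost members, 54.7 kb and 8.91 kb inside the window. The nearest peaks just outside it were 1 of LSD1 at day 3 from 30100352 to 30101554, with 41 tags at a fold of 9.23, and 1 of LSD1 at day 0 in control cells from 29698179 to 29698854, with 18 tags at a fold of 7.99.

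Control peaks without a knockdown peak were common over the whole list and rare among its high-scoring peaks. Over the whole control list at day 0, 57.9% of peaks had no knockdown peak, so 22 of 22 at the locus is to be read against that share. Among the 177 control peaks that scored at least as high as the fifth of the locus, 10 (5.65%) had no knockdown peak, and 5 of these 10 lay at SVIL. Score and absence from the knockdown list are values the locus was chosen by, and the lowest of the 177 scores is that of the fifth day 0 LSD1 peak of the locus, so this count is a description only. The other 5 were a pair on chromosome 8 (23004357 to 23007916 and 23011175 to 23012869), a pair on chromosome 11 (94178863 to 94179242 and 94179981 to 94180747) and 1 on chromosome 3 (17443239 to 17444110). The chromosome 8 pair was covered by SVIL, LSD1+8a and day 3 LSD1, and the chromosome 11 and chromosome 3 peaks by none of these 3 lists. At SVIL, all 5 were covered by day 3 LSD1, 4 by SVIL and 1 by LSD1+8a. Coverage of all 177 peaks by these 3 lists was not computed, so these counts are not read as particular to SVIL. The median peak held 28 tags in the knockdown list and 26 in the control list, and their lowest numbers were 10 and 9. All peaks of the knockdown list held 346367 tags, with a lowest fold of 3.31. Those of the control list held 539449 tags, with a lowest fold of 2.13. The depth of the libraries and the inputs used for them cannot be told apart from the knockdown with 1 library on each side.

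Among runs of at least 10 peaks of the same list, the SVIL run was the one with the shortest peaks and the highest folds by median. A run of 6 peaks on chromosome 11, given under the other observations, had a shorter median length and a higher median fold. The day 0 LSD1 list of control cells held 19 runs of at least 10 peaks with gaps of at most 25 kb. The SVIL run had the most peaks of these, 19, against 10 to 18 in the other 18 runs. Its median peak length was 484 bp, against 763 to 1387 bp in the others, its median fold 32.98 against 5.94 to 16.3, and its median score 254.4 against 74.4 to 164.1. Its median of 27 tags per peak lay near the low end of the others, 26 to 81. Of its peaks, 0% were covered by knockdown peaks, against 30.0% to 80.0%, and 47.4% by SVIL peaks, against 0% to 33.3%. Coverage by day 3 LSD1, 42.1%, lay within the range of the others, 10.0% to 100%, as did that by LSD1+8a, 5.26% against 0% to 50.0%.

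At SVIL, 0 of 19 peaks were covered by knockdown peaks, 9 by SVIL peaks and 8 by day 3 LSD1 peaks. Over the whole day 0 list, 42.1% of peaks were covered by knockdown peaks, 4.24% by SVIL peaks and 50.1% by day 3 LSD1 peaks. Absence from the knockdown list is a value the locus was chosen by. The 2 runs closest to the SVIL run in peak number were on chromosome 1 (156570605 to 156743653, 18 peaks) and chromosome 6 (26156462 to 26286218, 15 peaks). The chromosome 1 run had a median length of 1307 bp and a median fold of 6.03, and 9 of its 18 peaks were covered by knockdown peaks, 3 by SVIL peaks and 9 by day 3 LSD1 peaks. The chromosome 6 run had a median length of 1085 bp and a median fold of 11.4, with 8 of 15 peaks covered by knockdown peaks, 5 by SVIL peaks and all 15 by day 3 LSD1 peaks. Neither had the short length or the high fold of the SVIL run.

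**Figure D4:**
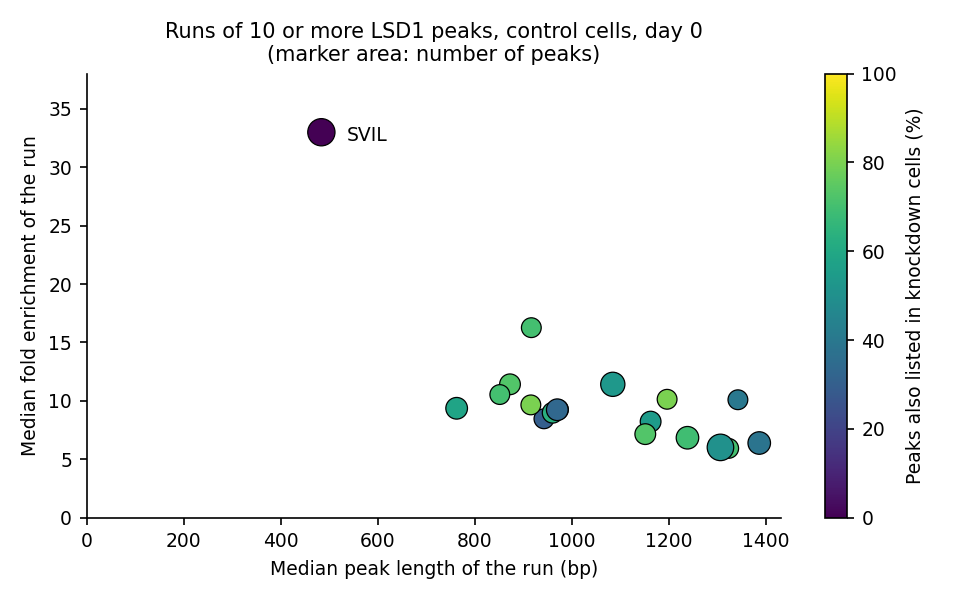
Median peak length in bp against median fold enrichment for the 19 runs of at least 10 LSD1 peaks in control cells at day 0, with marker area for the number of peaks and colour for the percent of peaks also listed in knockdown cells. Among these 19 runs, the SVIL run sits alone at 484 bp and a fold of 32.98 with 0% covered, while the other 18 lie between 763 and 1387 bp at folds of 5.94 to 16.3. Runs of fewer than 10 peaks are not drawn.

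By peak number the locus was among the densest stretches of the SVIL and day 0 LSD1 lists, and other windows held more day 0 LSD1 peaks. When all chromosomes were tiled with windows of the same length, 380 kb, 2 of 8015 windows held 10 or more SVIL peaks, 1 at SVIL itself and 1 on chromosome 11 (71820001 to 72200000). For LSD1+8a, with 1 peak at the locus, 28.7% of windows held as many or more. For day 3 LSD1, 89 windows (1.11%) held 12 or more. For LSD1 in knockdown cells, with 1 peak, 53.8% held as many or more. For day 0 LSD1 in control cells, 3 windows held 22 or more peaks, of which 1 overlapped SVIL with 23 peaks and the others lay on chromosome 1 with 24 and chromosome 17 with 22. With the tiling offset, windows on chromosome 1 and chromosome 6 held 26 each.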

How the data were processed

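Members and comparisons were chosen with earlier results of these data known. The submitters' processing notes name CASAVA, Bowtie 1.0.0, hg19 and mm9, and the human lists were read as hg19. The authors deposited 1 peak list per library, not pooled. The deposited tags are whole-number counts, the deposited fold enrichment is a ratio whose background the headers do not state, and the deposited score lost its name in the header. The peak caller, its threshold, the input and the depth of each library are not stated, so depth is unknown. Folds and scores were ranked within a list only. Fragments of 300 to 600 bp were selected and reads of 50 bp sequenced, per the labels' protocols. Overlap meant at least 1 bp. Runs were at least 10 peaks with gaps of at most 25 kb. Intervals are exact 95% intervals for counting error only. The rule for named genes was SVIL alone, with its 5 highest scoring peaks in full. Python 3.11.15, pandas 2.3.3 and scipy 1.17.1 were used, and functions were tested on simulated data. Sequences are from RefSeq (GRCh38.p14), matched by symbol. No exon annotation of hg19 was used here.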

Additional observations from a re-analysis of the deposited data

How the results depend on the processing

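Of 146 values recomputed under the alternatives, 121 stayed within 1.5 times the value reported or, for shares, within its interval, and 25 moved. With only as many top-scoring peaks per list as the shortest list holds, the locus held 0 LSD1+8a peaks, 3 LSD1 peaks at day 3 (median 76 tags, fold 41.3), 0 in knockdown cells and 11 at day 0 in control cells (median 52 tags). LSD1+8a also had 0 peaks in the upper 50% by score and at the lowest SVIL score, and in the upper 50% it covered 0% of SVIL peaks. With a reciprocal overlap of 50%, LSD1 covered 30.0% of SVIL peaks on day 3 and 40.0% on day 0, and SVIL covered 18.2% of day 0 peaks. With edges at most 1 kb apart, day 0 LSD1 covered 100% of SVIL peaks. Merging within 1 kb gave median gaps of 25.5 kb on day 3 and 5.37 kb on day 0. A gap of at most 10 kb left 2 runs, with 12 peaks at SVIL. A gap of at most 50 kb gave 62 runs, with SVIL at place 7 by peak number. At least 5 peaks gave 154 runs, with SVIL at place 3 by shortest length and place 2 by fold and by score. Windows with the offset held 10 SVIL peaks in 0 cases. Selection by score and merging keep fewer peaks, other gaps or peak minimums admit other runs, and the overlap alternatives change what counts as covered, all by construction. The offset was 190000 bases from windows that included 29640001 to 30020000, so a border fell inside the run. The 10 SVIL peaks of that window were divided by construction. For the chromosome 11 window the cause was not tested. No paired analysis was possible because each group is 1 library and no result comes from a test.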

Other observations

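When runs of at least 5 day 0 LSD1 peaks of control cells were taken, 154 in all, a few resembled the one at SVIL in peak length, fold or score. A run of 6 peaks on chromosome 11 (94153285 to 94180747) had a median length of 468 bp, a median fold of 39.9 and a median score of 253.7, and 0 of its 6 peaks were covered by knockdown peaks. A run of 5 peaks on chromosome 1 (23376690 to 23408385) was shorter still, with a median length of 378 bp, but had a median fold of 12.9 and a median score of 62.5, and 0 of its 5 peaks were covered by knockdown peaks. A run of 8 peaks on chromosome 19 (58816221 to 58920880) had a higher median score, 323.3, with a median length of 1237 bp and a median fold of 18.6, and 7 of its 8 peaks were covered by knockdown peaks. These runs were named after their values were seen, and gene names are not given for lack of an hg19 annotation in this work.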
